A study of Mus musculus with 4 samples.

Results

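The Ly6 genes of mouse chromosome 15 encode small surface proteins, and 6 of them were taken up here: Ly6a2, Ly6a, Ly6c1, Ly6c2, Ly6e and Ly6g. The set was chosen by the level of Ly6a2, whose mean FPKM in the libraries labelled KO was over 4 times that in the libraries labelled WT, and the other 5 were added by name as its relatives. Of the 16442 genes in the expression table, 5 were members: Ly6c1 had no row and its level was not analysed here. The contrast of KO with WT chose Ly6a2, so its difference is given as a description without a test, while Ly6a, Ly6c2, Ly6e and Ly6g were tested.

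The study sequenced polyA RNA of leukemia stem cells from bone marrow of C57BL/6 mice with leukemia, in 2 WT and 2 KO libraries. KO replicate 1 is labelled Rreb1-KO and KO replicate 2 is labelled Rreb2-KO, whereas the series design names Rreb1-KO mice for both; Rreb1 encodes a zinc-finger transcription factor. The titles call the cells LSC, but the extraction text speaks of TAMs, and no source used here gives the leukemia model, the age of the mice, the deleted part of Rreb1 or any Cre driver. The design text calls the replicates biological without saying whether each was a separate animal, so the p-values measure the spread between these libraries only, and an exact permutation test of 2 against 2 cannot go below p = 0.333 (two-sided).

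Ly6 proteins carry a three-finger fold held by disulfide bonds and are mostly fixed to the outer face of the membrane by a glycosylphosphatidylinositol (GPI) lipid anchor. In mouse marrow they are best known as sorting antigens: Sca-1, encoded by Ly6a, marks blood stem and progenitor cells, Ly6C, encoded by Ly6c1 and Ly6c2, marks monocytes, and Ly6G marks neutrophils. Ly6e encodes a widely expressed, interferon-inducible member studied for its part in virus entry, and Ly6a2 is a lesser-known gene beside Ly6c2.

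The recovered depth was 16590830 to 18451251 reads per library, at which 3 reads on a transcript of 1 kb amount to 0.163 to 0.181 FPKM, a count of fragments scaled to transcript length and library depth. Rreb1, the gene named in the design, measured 5.24 and 6.57 FPKM in WT against 6.10 and 6.93 FPKM in KO, and these ranges overlapped (log2 difference 0.13, limma adjusted p = 0.616). As the deleted part is unknown, reads outside it could be counted and this level does not check the labels. Of 10 stem and progenitor markers, 5 were in the table and the others were not analysed here; the summed level of those present was 138 and 146 FPKM in WT and 125 and 118 FPKM in KO, led by Cd34, Hoxa9 and Flt3. None of the 5 was called, where limma called 0.603% of all tested genes higher in KO and 0.408% lower. In 3 of them both KO values lay above both WT values and in 2 below, where 30.5% and 24.9% of all tested genes did so. These counts were not read as a result about the markers. Cd34 and Flt3 had log2 differences of -0.47 and -0.52 (limma adjusted p = 0.0650 and 0.0692), while Kit, the stem cell factor receptor, named after its values were seen, had one of 0.74 (adjusted p = 0.0512).

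Because the relatives arose as copies of each other, the sequences were compared first. A stretch of 90 bases of the coding part of Ly6c2 is shown with the aligned bases of the other members of the Ly6a, Ly6c and Ly6g branch, from the GENCODE M21 transcripts (GRCm38). Capitals mark the bases that differ from Ly6c2.
Ly6c2: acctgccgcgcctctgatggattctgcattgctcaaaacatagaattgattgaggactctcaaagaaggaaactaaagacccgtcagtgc
Ly6c1: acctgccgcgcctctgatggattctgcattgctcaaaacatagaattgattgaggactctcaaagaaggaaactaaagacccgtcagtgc
Ly6a2: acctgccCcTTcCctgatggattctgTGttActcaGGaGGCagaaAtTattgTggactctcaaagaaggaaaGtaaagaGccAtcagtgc
Ly6a: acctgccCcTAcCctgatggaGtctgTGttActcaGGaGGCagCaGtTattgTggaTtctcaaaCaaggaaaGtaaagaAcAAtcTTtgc
Ly6g: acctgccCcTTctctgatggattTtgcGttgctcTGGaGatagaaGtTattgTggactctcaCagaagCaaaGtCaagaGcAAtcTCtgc
Ly6c1 and Ly6c2 were the same in all 90 bases, whereas Ly6a2 differed from Ly6c2 at 18, Ly6g at 21 and Ly6a at 25 of them. Over the whole transcripts, Ly6c1 and Ly6c2 were 97.6% identical (822 aligned bases). Ly6a2 was 85.2% identical to Ly6a (647 aligned bases), 83.9% to Ly6c2 (646) and 82.8% to Ly6g (650). The closest copy of Ly6a2 among the genes compared was the pseudogene Gm5960, at 92.2% over 345 aligned bases. Ly6e aligned with each other member over at most 31 bases.

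A read can be assigned to 1 copy only where its sequence is not repeated in another, so every window of each member's annotated transcripts was looked up in the transcripts of all other genes. For Ly6a2, 9.58% of 804 windows of 50 bases occurred elsewhere, among them 35 in Gm5960, 20 in Ly6a, 18 in Ly6i and 3 in Ly6c2. At 75 bases 1.24% were shared, all 10 of them with Gm5960, and at 100 and 150 bases none was. Ly6c1 shared most, with 32.8% of windows at 50 bases, 19.1% at 75 and 2.29% at 150. Its main partner was Ly6c2, of whose windows 14.5%, 9.46% and 1.42% were shared at those lengths. Ly6a shared 19.0% at 50 bases and 1.45% at 100, mainly with Ly6c1, Ly6g shared 0.448% at 50 bases and none at longer windows, and Ly6e shared none at any length. No source used here gives the read length or the treatment of reads that match several genes, so the level of Ly6c2 in particular may hold reads of Ly6c1.

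**Figure D1:**
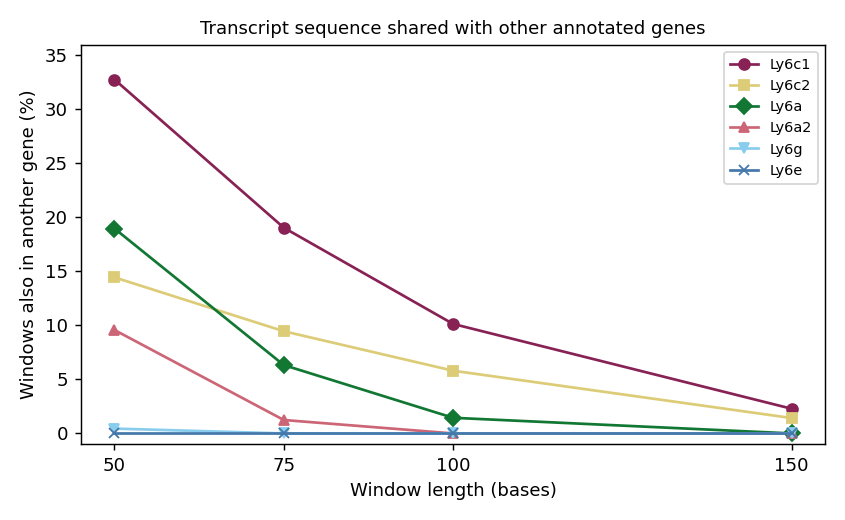
Share of windows of each member's annotated transcripts (vertical axis, percent) that also occur in another annotated gene, by window length (horizontal axis, bases). Ly6c1 is highest at every length, Ly6a2 falls from 9.58% at 50 bases to 0 at 100, and Ly6e is at 0 throughout.

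Ly6a2 (ENSMUSG00000102051.1 on GRCm38, listed in GENCODE M21 as I830127L07Rik) lies on the minus strand at chr15:75131377-75135128. GENCODE M21 calls it a transcribed unprocessed pseudogene, while RefSeq lists it as protein-coding. It stood at 32.5 FPKM (478 reads) in WT replicate 1 and at 31.5 FPKM (417 reads) in WT replicate 2. It stood at 139.9 FPKM (2056 reads) in KO replicate 1 and at 151 FPKM (2051 reads) in KO replicate 2. Both KO libraries lay far above both WT libraries, and the replicates of a group lay close together. The mean was 32.0 ± 0.684 FPKM (SD, n = 2) in WT and 145 ± 7.77 FPKM (SD, n = 2) in KO, a ratio of 4.55 and a difference of 2.15 on the log2(FPKM + 1) scale. Among the 11768 genes that averaged 1 FPKM or more, 0.365% had a ratio above 4, the value by which Ly6a2 was chosen. No other member was near that threshold, the next being Ly6g at a ratio of 1.42. Most erythroid markers were also higher in the same libraries. Of 6 tested, limma called 5 higher and 0 lower, where it called 0.603% and 0.408% of all tested genes. Klf1 went the other way, with both KO values below both WT values (log2 difference -0.72, limma adjusted p = 0.207). The summed level of the 7 listed was 92.6 and 83.5 FPKM in WT against 421 and 514 FPKM in KO. The part of the erythroid markers in the Ly6a2 values was not tested.

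Ly6a2 held more reads in every library than Ly6a, Ly6g and Gm5960 together. Those 3 genes held 209, 221, 211 and 212 reads in WT replicates 1 and 2 and KO replicates 1 and 2. Gm5960, the closest copy, held 137 and 128 reads in the WT pair against 112 and 135 in the KO pair, and these overlapped (log2 difference -0.12, limma adjusted p = 0.637). Ly6i, another coding relative, had at most 6 reads in any library. Ly6c2 alone among these copies had more reads than Ly6a2.

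Ly6c2 (ENSMUSG00000022584.14), 1 of the 2 genes for the monocyte antigen Ly6C, lies at chr15:75108158-75111970 on the minus strand, 23.1 kb from Ly6a2 between gene midpoints. Its level was 563 and 514 FPKM in WT against 645 and 705 FPKM in KO. Both KO values lay above both WT values, with means of 538 ± 34.6 FPKM in WT and 675 ± 42.5 FPKM in KO (SD, n = 2 each). The log2 difference was 0.33 (SE 0.12, 95% limits 0.040 to 0.61), which did not pass the limma test after adjustment (adjusted p = 0.203). Each library held 23351 to 32930 Ly6c2 reads. The annotated exons span 2740 bases because 1 transcript retains an intron, while the spliced coding transcript is 822 bases long, so FPKM per annotated length states a lower level than the spliced length would. Of 7 monocyte markers tested, limma called 0 higher and 2 lower, Irf8 and Ms4a6c, where it called 0.603% and 0.408% of all tested genes. Cd14 went the other way, with both KO values above both WT values (log2 difference 0.20, limma adjusted p = 0.432). So did Klf4, which averaged below 1 FPKM and was not tested. The summed level of the 9 listed was 295 and 234 FPKM in WT and 169 and 182 FPKM in KO. In bulk RNA, fewer cells of a type and less RNA per cell cannot be told apart.

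The reads of this neighbouring pair were also set side by side. Of the reads on Ly6a2 and Ly6c2 together, Ly6a2 held 1.65% (95% Wilson interval 1.51 to 1.81) in WT replicate 1 and 1.75% (1.60 to 1.93) in WT replicate 2. It held 5.94% (5.69 to 6.19) in KO replicate 1 and 5.86% (5.62 to 6.11) in KO replicate 2. The intervals cover counting error only, and the higher share in KO follows from the rule that chose Ly6a2, so it is given as a description. The ratio of the 2 levels in FPKM was 0.0577 and 0.0613 in WT and 0.217 and 0.214 in KO.

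The bases upstream of these neighbours were more alike than their transcripts. The 250 bases before the start of each gene are shown from RefSeq (GRCm38.p6), both on the minus strand, at chr15:75135129-75135378 for Ly6a2 and at chr15:75111972-75112221 for Ly6c2. Capitals mark the 7 bases at which Ly6c2 holds GAGGAAG, a core recognised by the myeloid transcription factor PU.1, and the aligned bases of Ly6a2.
Ly6a2: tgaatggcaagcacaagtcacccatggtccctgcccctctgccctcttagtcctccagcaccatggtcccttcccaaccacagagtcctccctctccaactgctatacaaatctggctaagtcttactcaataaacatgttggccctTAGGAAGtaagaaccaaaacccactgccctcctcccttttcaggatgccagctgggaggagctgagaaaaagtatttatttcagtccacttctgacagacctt
Ly6c2: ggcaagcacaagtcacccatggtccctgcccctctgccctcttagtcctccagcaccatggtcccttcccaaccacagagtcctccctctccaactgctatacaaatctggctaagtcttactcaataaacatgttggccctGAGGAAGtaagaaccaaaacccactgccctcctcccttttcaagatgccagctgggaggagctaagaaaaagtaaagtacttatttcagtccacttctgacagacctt
Of 245 paired bases, 242 were identical (98.8%), against 83.9% for the transcripts. The upstream percentages leave out bases that face a gap, whereas the transcript percentages count gap positions, so they are not the same measure. The upstream bases of Ly6a2 were 81.0% identical to those of Ly6c1 (211 paired bases) and 80.1% to those of Ly6g (176). Ly6c1 and Ly6c2, the nearest pair by transcript, were 80.2% identical there (212 paired bases). Each gene was taken at its most upstream annotated start, and other annotated starts were not compared. The KO to WT ratio of mean FPKM was 4.55 for Ly6a2, which was chosen by it, and 1.25 for Ly6c2. The part of the upstream bases in these ratios was not tested.

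Short motifs were searched on both strands in the 300-base promoter windows (250 before to 50 after the start) of the 4 members with an entry, Ly6a2, Ly6c1, Ly6c2 and Ly6g. These members had 7 entries together. Only the window at the most upstream start of each was searched, so a match or its lack below holds for that start alone. GAGGAAG occurred at 2 places in Ly6c2, with first bases at positions -108 and 27 relative to the start, at 1 place in Ly6g, and not in Ly6a2 or Ly6c1. It occurred in 13.6% of 32851 mouse promoter windows of that length. The aligned 23 bases around the upstream match show how near Ly6a2 comes to it, with capitals on the 7 core bases.
Ly6c2: ttggccctGAGGAAGtaagaacc
Ly6a2: ttggccctTAGGAAGtaagaacc
Ly6g: atggcctgGAGGAAGtaggtata
The Ly6a2 core differed from that of Ly6c2 by 1 base here, and by 1 base at the place after the start. The interferon motifs searched, TTCNNNGAA (GAS, in 8.30% of all promoter windows) and the ISRE core (3.44%), occurred in none of the 4 windows. A match or its lack describes these letters and was not tested as a binding site.

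Ly6e (ENSMUSG00000022587.14), the interferon-inducible member, lies on the plus strand at chr15:74955051-74959905, 175.7 kb from Ly6a2. Its level was 846 and 749 FPKM in WT against 528 and 478 FPKM in KO, and both KO values lay below both WT values. The mean was 798 ± 68.9 FPKM in WT and 503 ± 35.3 FPKM in KO (SD, n = 2 each), a ratio of 0.631. The log2 difference was -0.66 (SE 0.13, 95% limits -0.97 to -0.36), with limma adjusted p = 0.0808, so it did not pass at 0.05. By limma-voom on the recovered reads, 30816 to 59095 per library, the same difference gave an adjusted p of 0.00154, and over all settings tried the adjusted p ran from 0.00154 to 0.350. Ly6e shared no window with another gene. Other cell type lists also held genes called lower: 3 of 6 tested macrophage markers, 3 of 6 of B and plasma cells and 2 of 3 of basophils and mast cells. In these lists limma called 0 higher, where it called 0.408% of all tested genes lower and 0.603% higher. Not every marker went down: Cd79a (log2 difference 0.65, limma adjusted p = 0.101) and Mcpt8 (0.22, adjusted p = 0.217) had both KO values above both WT values. Further lists held no call in either direction: primary granule (5 tested), T and NK cells (8), plasmacytoid dendritic cells (2) and endothelial cells (2). Their median log2 differences were 0.053, -0.49, 0.022 and 0.074 in that order. The summed macrophage level was 463 and 402 FPKM in WT against 301 and 282 FPKM in KO. That of B and plasma cells was 450 and 412 against 326 and 272 FPKM, and that of basophils and mast cells 469 and 535 against 269 and 263 FPKM. No marker listed was at 0 in all libraries, and the part of these cells in the Ly6e values was not tested.

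Ly6a (ENSMUSG00000075602.10), the gene for Sca-1, lies on the minus strand at chr15:74994877-74998031. It was a low gene, at 2.02 and 2.70 FPKM (45 and 54 reads) in WT and 2.30 and 1.41 FPKM (51 and 29 reads) in KO. The groups overlapped, with a log2 difference of -0.25 (SE 0.20, 95% limits -0.74 to 0.25, limma adjusted p = 0.513).

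Ly6g (ENSMUSG00000022582.4), the gene for the neutrophil antigen Ly6G, lies on the plus strand at chr15:75155240-75159126, 24.0 kb from Ly6a2 on its other side. It stood at 1.55 and 2.50 FPKM (27 and 39 reads) in WT and at 2.77 and 2.99 FPKM (48 and 48 reads) in KO. Both KO values lay above both WT values, with a log2 difference of 0.38 (SE 0.18, 95% limits -0.068 to 0.82, limma adjusted p = 0.293). Most neutrophil markers moved further in the same direction. Of 12, limma called 8 higher and 0 lower, where it called 0.603% and 0.408% of all tested genes. Cxcr2 had both KO values below both WT values (log2 difference -0.11, limma adjusted p = 0.680). Ltf, Mmp8 and Csf3r overlapped, with log2 differences of -0.055, -0.041 and -0.080. The summed level of the 12 was 1313 and 1335 FPKM in WT and 2976 and 3565 FPKM in KO, led by S100a8, S100a9 and Ngp. The part of the neutrophil markers in the values of Ly6g and Ly6a2 was not tested.

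**Figure D2:**
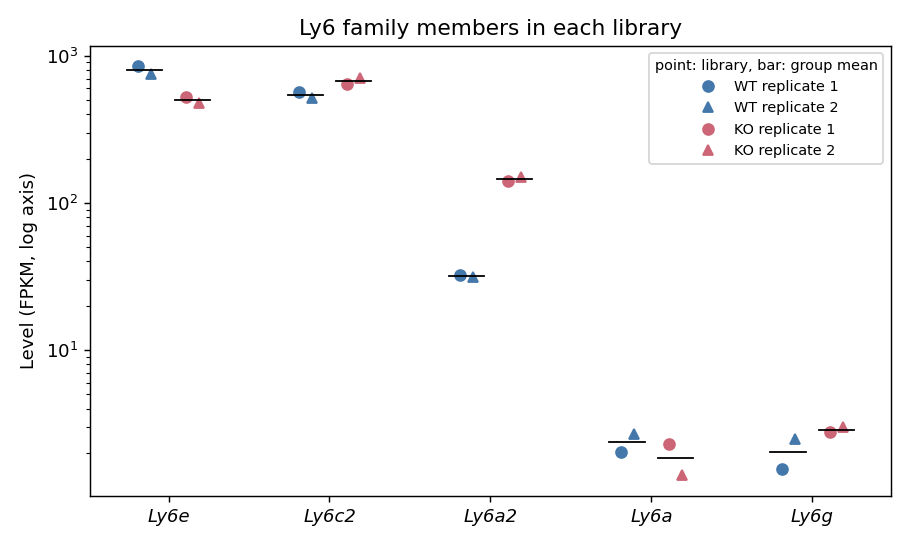
Level of the 5 members with a row (vertical axis, FPKM, log scale), with 1 point per library and a bar at each group mean. The KO points of Ly6a2 (139.9 and 151 FPKM) stand well above its WT points, those of Ly6e lie below, and those of Ly6a overlap with WT.

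Of the 4 tested members, limma called 0 higher and 0 lower in KO at an adjusted p below 0.05, where 0.603% and 0.408% of the 11768 tested genes were called higher and lower. At an unadjusted p below 0.05, 1 was higher (Ly6c2) and 1 lower (Ly6e), against 11.4% and 9.35% of all tested genes. Limma-voom called 0 higher and 1 lower (Ly6e), against 4.35% and 2.9%. The groups did not overlap for 2 of the 4 upward (Ly6c2 and Ly6g) and 1 downward (Ly6e), where 30.5% and 24.9% of all tested genes did not overlap in those directions, so the counts of separated members were not read as a result about the family. Without KO replicate 2, the library labelled Rreb2-KO, limma again called 0 higher and 0 lower, and the log2 differences were 2.09 for Ly6a2 and -0.59 for Ly6e.

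The order of the members by mean FPKM over the 4 libraries, on annotated exonic length, was Ly6e (650.3), Ly6c2 (607), Ly6a2 (88.7), Ly6g (2.45) and Ly6a (2.11). Their places among the 11768 tested genes were 53, 57, 729, 9238 and 9684 from the top. The ratio of Ly6e to Ly6c2 on that scale was 1.504 and 1.46 in WT and 0.818 and 0.678 in KO. The order of these 2 depends on the length used: with all reads placed on the spliced coding transcripts (822 bases for Ly6c2, 2281 for Ly6e), Ly6c2 was at 1875 and 1712 FPKM in WT and 2151 and 2351 FPKM in KO, above Ly6e at 1404 and 1242 FPKM in WT and 876 and 793 FPKM in KO. Ly6g and Ly6a had overlapping ranges in WT and not in KO.

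The family's reads as a whole did not grow. The 5 members held 0.477% and 0.427% of all reads in WT and 0.388% and 0.387% in KO. Within them, Ly6e went from 67.1% and 66.3% to 51.5% and 46.8%, and Ly6c2 from 32.3% and 32.9% to 45.5% and 49.99%. Ly6a2 went from 0.543% and 0.588% to 2.87% and 3.11%, so it remained a small part of the family's reads in every library.

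**Figure D3:**
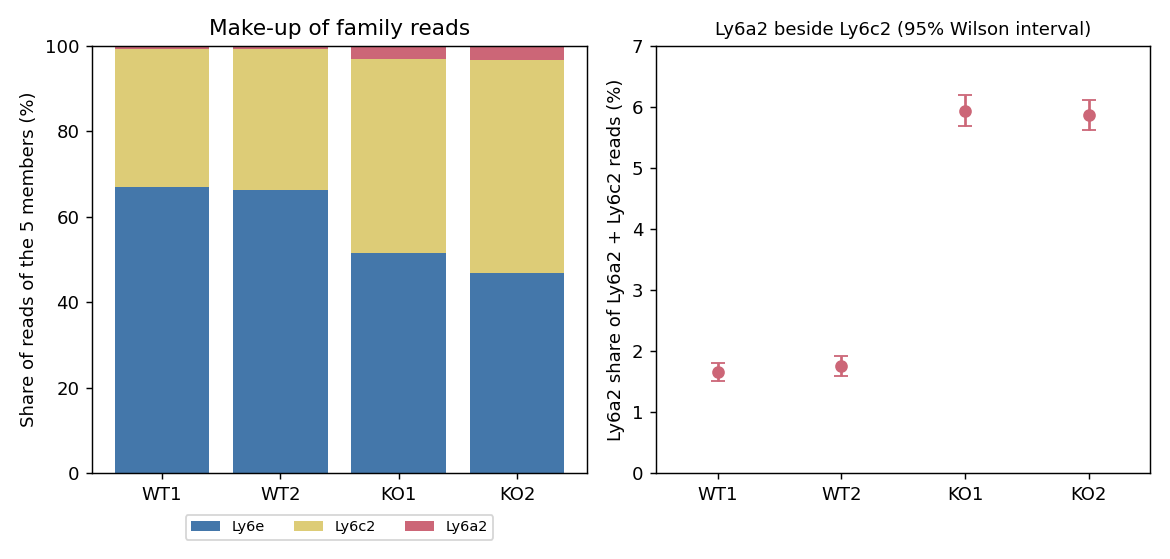
Left, share of the 5 members' reads held by Ly6e, Ly6c2 and Ly6a2 in each library (percent; Ly6a and Ly6g are too small to draw). Right, share of Ly6a2 among the reads of Ly6a2 and Ly6c2 with 95% Wilson intervals, at 1.65% and 1.75% in WT and 5.94% and 5.86% in KO.

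The stretch of chromosome 15 from Jrk to Gpihbp1 (896 kb) holds 47 annotated genes, of which 17 had a row and 12 reached a mean of 1 FPKM. Of those 12, 4 had both KO values above both WT values, Ly6a2 as chosen among them, and 6 had them below, where 30.5% and 24.9% of all tested genes did so; nothing about the region was read from these counts. Ly6k, a relative known from male germ cells, stood at 426 and 378 FPKM in WT and at 321 and 318 FPKM in KO (log2 difference -0.33, SE 0.11, limma adjusted p = 0.183). Ly6g6g stood at 5.68 and 5.90 FPKM in WT and at 3.44 and 2.69 FPKM in KO (log2 difference -0.75, SE 0.13, adjusted p = 0.0696). Gm39556, a long noncoding RNA on the side of Ly6e away from Ly6a2, stood at 10.5 and 9.15 FPKM in WT and at 15.0 and 14.8 FPKM in KO (log2 difference 0.56, adjusted p = 0.0705). None of these passed at 0.05, and the library kit text does not mention strand, so overlapping genes on opposite strands could not be separated.

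**Figure D4:**
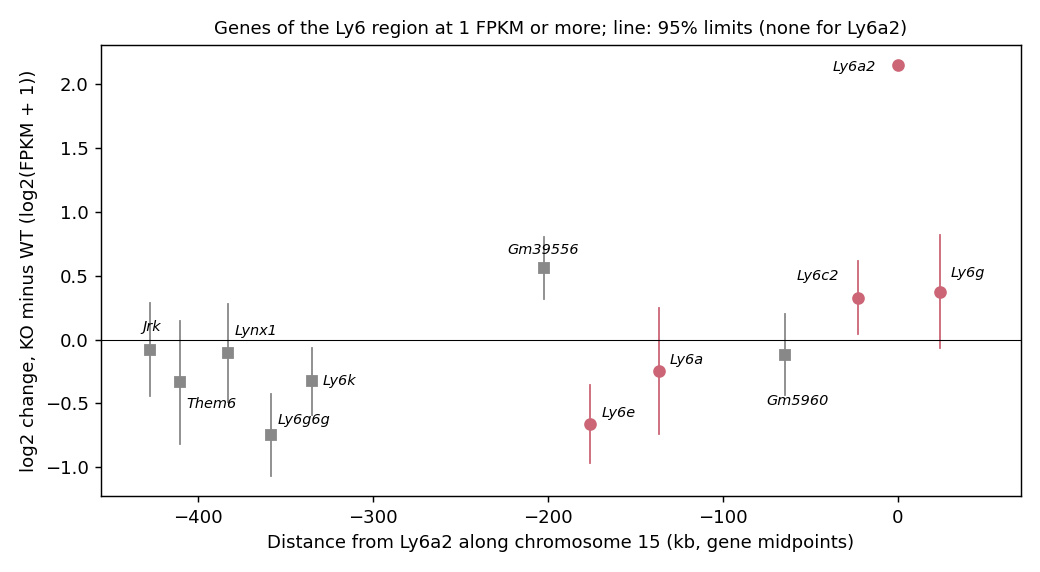
log2 difference, KO minus WT, of the 12 genes of the region at a mean of 1 FPKM or more (vertical axis) by distance from Ly6a2 between gene midpoints (horizontal axis, kb), with 95% limits except for Ly6a2; members are red circles and other genes grey squares. Ly6a2 at 2.15 stands apart, Ly6c2 and Ly6g beside it lie at 0.33 and 0.38, and Ly6e lies at -0.66.

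Beyond the members, 46 other genes of the Ly6/uPAR family, which shares the three-finger fold, were listed; 11 had a row and 6 were tested. limma called 0 higher and 0 lower (unadjusted p below 0.05: 2 higher and 1 lower, where 11.4% and 9.35% of all tested genes were; limma-voom: 1 higher and 0 lower, where 4.35% and 2.9% were). The median log2 difference was 0.24, beside 0.025 over all tested genes. Ly6g6g, described above, was not in this list; with it added after its values were seen, 7 were tested, 0 were called in either direction, 2 were higher and 2 lower at an unadjusted p below 0.05, and the median was 0.17. Cd177, a neutrophil surface protein, stood at 40.8 and 29.6 FPKM in WT and at 61.6 and 57.7 FPKM in KO (log2 difference 0.76, SE 0.15, limma adjusted p = 0.0900, limma-voom adjusted p = 0.00295). It is the member of this list that limma-voom called, and it moved beside the neutrophil markers given above. Ly6g5b went from 3.04 and 3.13 to 4.39 and 5.59 FPKM (log2 difference 0.54, adjusted p = 0.128). Plaur, the urokinase receptor, had a log2 difference of 0.31 (adjusted p = 0.267), Tex101 one of 0.17 (adjusted p = 0.701) and Lynx1, a modulator of nicotinic receptors, one of -0.11 (adjusted p = 0.724).

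Most members need a GPI anchor to reach the surface, so 33 genes of its synthesis and attachment were listed, of which 28 were tested. limma called 0 higher and 1 lower, and 27 did not pass, where 0.603% and 0.408% of all tested genes were called higher and lower. The median log2 difference was 0.026, beside 0.025 over all tested genes. The gene called was Pigt, a subunit of the transamidase that attaches the finished anchor to proteins. It stood at 63.7 and 58.9 FPKM in WT and at 35.1 and 34.0 FPKM in KO (log2 difference -0.81, SE 0.084, limma adjusted p = 0.0194). The call was lost without any 1 of the 4 libraries (adjusted p = 0.0568 to 0.133), without the filter on level (0.160) and without an intensity trend (0.0621), while the log2 difference of Pigt stayed between -0.87 and -0.75 on leaving out a library. Pigs, another transamidase subunit, had a log2 difference of -0.22 (adjusted p = 0.242), and Pigp and Pigb, which act earlier in the pathway, had differences of 0.21 (0.300) and 0.23 (0.301).

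Of 50 interferon-stimulated genes, listed because interferon induces Ly6e and Ly6a, 45 were tested. limma called 0 higher and 0 lower (unadjusted p below 0.05: 5 higher and 4 lower, where 11.4% and 9.35% of all tested genes were). Limma-voom called 3 higher (Isg20, Ifih1 and Oas2) and 1 lower (Gbp3), where it called 4.35% and 2.9% of all its genes. The median log2 difference was 0.013, beside 0.025 over all tested genes. Isg20, an exonuclease, had a log2 difference of 0.56 (limma adjusted p = 0.125), the RNA sensor Ifih1 one of 0.45 (0.134), Oas2, an oligoadenylate synthetase, one of 0.48 (0.161), and the GTPase Gbp3 one of -0.38 (0.119). The list thus held values on both sides of zero around a median near that of all genes.

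**Figure D5:**
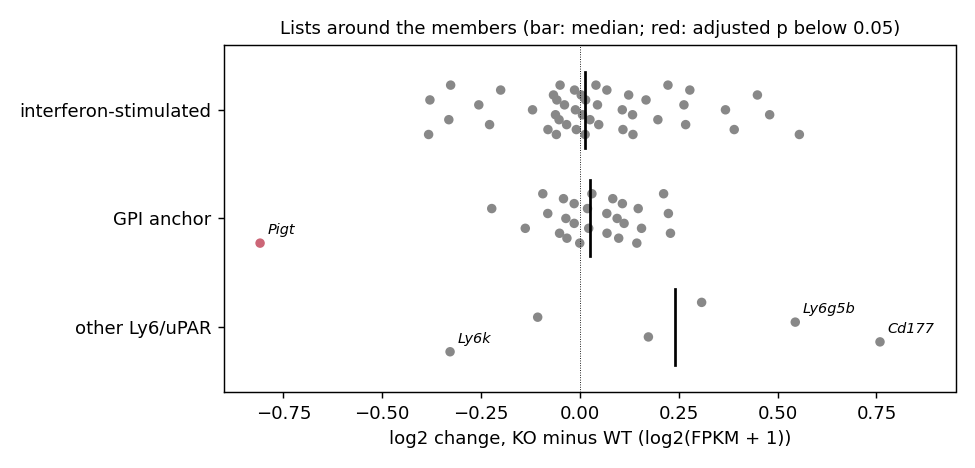
log2 difference, KO minus WT, of each tested gene (horizontal axis) in the lists of other Ly6/uPAR, GPI anchor and interferon-stimulated genes, with a bar at each median. Pigt at -0.81 is the only gene drawn in red (limma adjusted p below 0.05), and the medians are 0.24, 0.026 and 0.013.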

How the data were processed

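Per the submitters' processing notes, the tools were CASAVA, HISAT2 2.1.0, featureCounts and DESeq2 and the build GRCm38; no source used here gives their order or settings. The authors deposited FPKM plus 1 in 1 table of 16442 genes and 4 libraries (2 WT, 2 KO), with a lowest value of 1, so 1 was subtracted from every value. That the values are FPKM plus 1 was read from the column names and from the values themselves.

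Genes were matched to GENCODE M21 by symbol (16014) or older symbol (176). Dividing out exonic length gave whole reads (within 0.05, up to 30 reads) for 98.9% to 99.2% of low values, and reads were recovered for 15956 genes.

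KO was compared with WT by limma 3.58.1 (R 4.3.3) with an intensity trend on log2(FPKM + 1) over 11768 genes averaging 1 FPKM or more, two-sided, with Benjamini-Hochberg adjustment at 0.05; "called" means past that threshold, and differences are on that scale, which understates changes of low genes. The median difference over these genes was 0.025. The scripts were tested on simulated data. Sequences came from GENCODE M21 and RefSeq (GRCm38.p6), aligned with Biopython 1.88.

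The members and gene lists were chosen with earlier results of these data known. Members were named whatever their values; of the lists, other Ly6/uPAR genes at 1 FPKM or more, the 4 GPI anchor and 4 interferon-stimulated genes with the smallest limma p, and the 3 most abundant markers of a cell type could be named; neighbours and the 3 genes nearest to a member in profile were named by position and distance. I830127L07Rik was left out of the other Ly6/uPAR genes because it is Ly6a2. The ranking by profile left out members and symbols that start with Gm or end in Rik. Alternatives covered the pseudocount (0.1), filter, trend, scaling, replicate number as a block, limma-voom on recovered reads, summed copies and leaving out each library. The Wilson intervals cover counting error only. The limits given with differences between KO and WT come from the limma standard errors, which rest on the spread between libraries.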

Additional observations from a re-analysis of the deposited data

How the results depend on the processing

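Over 11 settings each, the log2 difference of Ly6a2 ranged from 2.09 to 2.20 (2.07 when summed with Ly6a, whose level is low), that of Ly6c2 from 0.26 to 0.39, that of Ly6e from -0.75 to -0.58, that of Ly6g from 0.15 to 0.60 and that of Ly6a from -0.47 to -0.021; none changed sign. By limma-voom on recovered reads, 1 member was called lower (Ly6e) in place of 0, 1 other Ly6/uPAR gene was called higher in place of 0, and 3 interferon-stimulated genes were called higher and 1 lower in place of 0 and 0; the cause was not tested. Among GPI anchor genes, the count called lower was 0 in place of 1 without the filter on level, 0 without an intensity trend, and 0 to 0 on leaving out each library in turn, where fewer samples are tested and the lone library of a group is assumed to vary like the other group. The counts of called members did not move under any other setting. With Ly6a2 and Ly6c2 summed, an alternative chosen after seeing the data, the log2 difference was 0.52, given without a test because the sum holds Ly6a2. The sum of Ly6c1 and Ly6c2 was not run because Ly6c1 was not analysed here.

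With the replicate number as a block, 0 members were called higher and 0 lower, and the adjusted p of Ly6e was 0.0787. The correlation of the deviations of same-numbered libraries was 0.00900, and no label says what a shared number stands for, so the libraries were not treated as pairs. Ly6a and Ly6g rest on 27 to 54 reads per library.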

Other observations

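The tested genes whose profile over the 4 libraries lay nearest to that of a member were listed as a description, by the distance between log2(FPKM + 1) values centred on each gene's mean. Members and genes with symbols that start with Gm or end in Rik were left out of this ranking. Ly6a2 was chosen for its rise in KO, so a rise in the genes nearest to it follows from that choice. For Ly6a2 they were Mir7224 (distance 0.217), Hba-a1 (0.261) and Hbb-bs (0.314). Mir7224 rested on 0 and 0 reads in WT and 3 and 3 reads in KO. Hba-a1 and Hbb-bs, globin genes of red cells, stood at 40.6 and 42.4 FPKM and at 21.3 and 18.7 FPKM in WT, and at 197 and 241 FPKM and at 103 and 122 FPKM in KO.

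For Ly6c2 the nearest were Dnmt1, the maintenance DNA methyltransferase (0.0247), Cox7a2, a subunit of respiratory complex IV (0.0352), and Oas1c, of the oligoadenylate synthetase family (0.0359). For Ly6e they were Ppfia4 (0.0329), Gfi1b, a transcriptional repressor of erythroid and megakaryocyte cells (0.0379), and Tsc22d1 (0.0823). Tsc22d1 stood at 29.5 and 26.2 FPKM in WT and at 16.9 and 16.3 FPKM in KO. Below the filter on level, the neighbour Gm8000 had 3 and 6 reads in WT and 13 and 18 reads in KO.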
